A study of Mus musculus with 24 samples.

Results

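The transcripts of the mouse mitochondrial genome are the 37 genes whose names begin with mt- among the 55202 gene names of the expression table. They are 13 protein genes, 2 rRNAs and 22 tRNAs, all on chrM of the mm10 build (GRCm38). The rule that picks them uses the gene name and no measured value. Of the 37 genes, 25 had a count in at least 1 library: the 13 protein genes, the 2 rRNAs and 10 of the tRNAs.

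The RNA came from tumours grown in mice from grafted CT26.WT cells, a colon carcinoma line that arose in Balb/c mice. The hosts were male mice labelled wild-type, either NSG, a strain without T, B and NK cells, or Balb/c, which keeps these cells. They ate a high-methionine diet of 0.86% methionine or a methionine-restricted diet of 0.172% methionine for 3 to 4 weeks. The 4 groups hold 6 tumours each except Balb/c on 0.86% methionine. There 2 pairs of libraries were nearly identical, and each pair was treated as 1 tumour, which leaves 4 tumours. The comparisons are between diets within each host and between hosts on each diet.

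Mitochondrial DNA is a small circle that is copied onto long RNAs from both strands, and tRNAs lying between the other genes mark where these RNAs are cut. The proteins it encodes are core subunits of respiratory complexes I, III and IV and of ATP synthase, and its rRNAs and tRNAs serve only the mitochondrial ribosome. Methionine enters this system as the substrate of formyl-methionine, which starts mitochondrial proteins, and as the source of the methyl groups placed on mitochondrial RNA. Most of the mature mRNAs carry short poly(A) tails, while the tRNAs end in CCA and the rRNAs carry at most a few added adenines.

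Some features of these genes bear on how they can be counted from reads of 75 bases, and the sequences below show them, from GENCODE mouse release 21 on GRCm38. Mt-Atp8, at chrM:7766-7969 on the plus strand, is 204 bases long, and its last 43 bases, in capitals, are also the first bases of mt-Atp6.
mt-Atp8: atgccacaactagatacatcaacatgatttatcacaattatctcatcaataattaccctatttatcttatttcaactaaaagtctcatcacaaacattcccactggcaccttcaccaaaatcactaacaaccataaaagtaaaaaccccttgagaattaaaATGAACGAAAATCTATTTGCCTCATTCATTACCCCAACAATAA
A read of 75 bases that touches no part of mt-Atp6 can start at only 88 positions of mt-Atp8, against 563 for mt-Atp6. Among the protein genes, 7 bases are also shared by mt-Nd4l and mt-Nd4, and 14 by mt-Nd5 and mt-Nd6, which lie on opposite strands. Mt-Atp6 ends at chrM:8607, the base where mt-Co3 starts. The ends of mt-Nd1, mt-Nd2 and mt-Co1 each lie inside a tRNA gene. As annotated, 10 of the 13 protein genes end in a whole stop codon. Of these, mt-Nd1 (ending at chrM:3707) and mt-Nd2 (ending at chrM:4951) reach into mt-Ti (from chrM:3706) and mt-Tw (from chrM:4950). Whether their cut mRNAs keep the whole codon was not tested. The other 3 protein genes end in a lone T, in capitals at the end of their last 30 bases. Their stop codon is completed only when the poly(A) tail is added.
mt-Co3, ending at chrM:9390 on the plus strand: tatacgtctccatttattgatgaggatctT
mt-Nd4, ending at chrM:11544 on the plus strand: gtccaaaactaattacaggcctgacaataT
mt-Cytb, ending at chrM:15288 on the plus strand: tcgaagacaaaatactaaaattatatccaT
The last set, of 4 tRNAs, is shown because their counts differ widely although their lengths do not, with the anticodon in capitals. Mt-Tc carries cysteine, mt-Tn asparagine and mt-Tp proline, and these are the tRNAs with the most counts, while mt-Td, for aspartate, had none.
mt-Tc, chrM:5192-5257, minus strand: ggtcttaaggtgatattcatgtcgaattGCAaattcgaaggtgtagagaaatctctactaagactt
mt-Tn, chrM:5089-5159, minus strand: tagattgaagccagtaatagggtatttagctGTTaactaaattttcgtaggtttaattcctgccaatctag
mt-Tp, chrM:15356-15422, minus strand: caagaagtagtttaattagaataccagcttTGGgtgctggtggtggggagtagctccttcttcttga
mt-Td, chrM:6942-7011, plus strand: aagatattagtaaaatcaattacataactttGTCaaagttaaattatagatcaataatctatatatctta

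The libraries held 31339425 to 57162217 assigned counts each, so counting error was small for the protein genes and rRNAs and large for the tRNAs. Libraries 19 and 23 (Pearson r 0.9987 over 11518 genes) and libraries 20 and 24 (0.9981) were closer than any of the other 274 pairs, whose highest r was 0.9921. Each pair was therefore averaged and treated as 1 tumour, written 19/23 and 20/24, although the labels list these libraries as separate samples. The labels do not state that the other libraries came from separate animals, so the p-values below cover only the variation among these libraries, which may be technical. The 5 epithelial markers (Epcam, Krt8, Krt18, Krt19 and Cdh1) summed to 603 to 31177 normalised counts per tumour, and 3 to 5 of them had counts in every tumour of a group. The 8 T and NK cell markers summed to 1.85 to 9.15 normalised counts in NSG hosts and to 57.9 to 6074 in Balb/c hosts, and Ncr1 was at 0 in all NSG tumours. Tumour 17 had the lowest of these Balb/c sums. The RNA is bulk RNA, so fewer cells of a type and less RNA per cell cannot be told apart.

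Mitochondrial genes took 1.82% to 3.12% of all assigned counts. In NSG hosts on 0.86% methionine the share was 1.82% in the lowest, 2.38% in the median and 3.02% in the highest tumour, with a mean of 2.37% ± 0.445 (SD, n = 6). On 0.172% methionine in the same hosts it was 2.44%, 2.84% and 3.12%, with a mean of 2.81% ± 0.244 (SD, n = 6). In Balb/c hosts on 0.86% methionine the 4 tumours had 2.04% (19/23), 2.70% (20/24), 2.08% (21) and 1.996% (22), with a mean of 2.20% ± 0.333 (SD, n = 4). Tumour 20/24 stood above the other 3, which lay close together. On 0.172% methionine the Balb/c share was 2.04% in the lowest, 2.80% in the median and 3.11% in the highest tumour, with a mean of 2.69% ± 0.444 (SD, n = 6). The diet groups overlapped in both hosts. The share is a sum over the members and is given without a test.

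**Figure D1:**
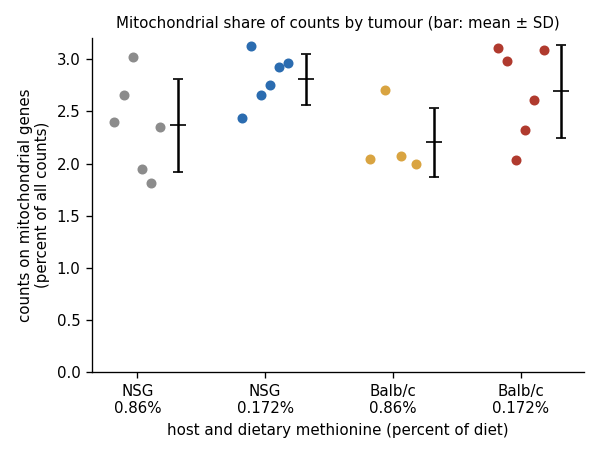
Each point is 1 tumour, the vertical axis is the percent of all assigned counts that fell on mitochondrial genes, and the black bars are the mean and SD of a group. The group means are 2.37% and 2.81% in NSG hosts and 2.20% and 2.69% in Balb/c hosts on 0.86% and 0.172% methionine, and the points of both diets overlap.

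Within the mitochondrial counts, mt-Co1, the catalytic subunit of complex IV, alone held 30.7% to 41.4%, with a median of 35.1% over tumours. With mt-Co2 and mt-Co3 the complex IV genes held 53.6% to 63.3%. To compare genes of unequal length, counts were divided by the number of positions at which a read could lie within the gene and no other. On this scale mt-Co1 led with 255 ± 40.7 (SD over 22 tumours) normalised counts per position. Mt-Atp6 (193 ± 39.9) and mt-Co2 (190 ± 33.2) followed and did not keep 1 order, since mt-Atp6 was above mt-Co2 in 13 of 22 tumours. Mt-Co3 stood at 173 ± 34.5 and mt-Cytb, the cytochrome b of complex III, at 114 ± 19.8, and mt-Cytb was above the next gene in all 22 tumours.

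The 7 complex I genes were lower, from mt-Nd1 (57.1 ± 14.9) through mt-Nd4 (47.7 ± 10.7), mt-Nd4l (37.1 ± 8.45) and mt-Nd2 (34.7 ± 8.86) to mt-Nd6 (24.4 ± 6.61), mt-Nd3 (22.8 ± 7.46) and mt-Nd5 (21.3 ± 5.80). Several neighbours in this order changed places between tumours: mt-Nd6 was above mt-Nd3 in 13 of 22 tumours and mt-Nd3 above mt-Nd5 in 14. Mt-Atp8, the small ATP synthase subunit, averaged 52.2 ± 30.9 over all tumours, with the largest SD within groups among the protein genes on the log2 scale (0.71). Its place in the order differed by host. In NSG hosts it averaged 58.1 and 84.2 per position on 0.86% and 0.172% methionine, against 56.9 and 69.7 for mt-Nd1. The Balb/c averages were 23.8 and 33.3, against 44.2 and 53.2 for mt-Nd1. The rRNAs lay far below at 4.28 ± 1.38 (mt-Rnr1, of the small ribosomal subunit) and 1.90 ± 0.869 (mt-Rnr2, of the large subunit). Together they held 0.326% to 1.33% of mitochondrial counts. The labels name both poly(A) enrichment and a kit with ribosomal depletion, and the part of either step in the low rRNA level was not tested.

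**Figure D2:**
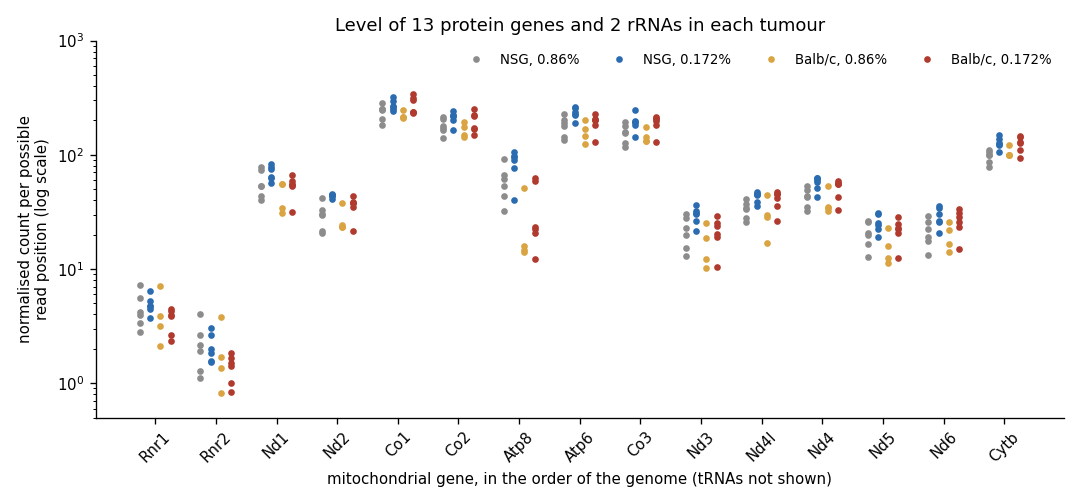
Each point is 1 tumour, coloured by host and diet, and the vertical axis is the normalised count per possible read position on a log scale, with genes in their order along the genome. Mt-Co1 leads at a mean of 255, the complex I genes lie between 21.3 and 57.1, and the rRNAs are lowest at 4.28 and 1.90.

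Among the complex I genes, mt-Nd2 had the largest diet difference in NSG hosts. On 0.86% methionine its normalised count was 19933 in the lowest, 28690 in the median and 39870 in the highest NSG tumour, and on 0.172% methionine it was 39242, 42699 and 44012. Of the 6 restricted tumours, 5 lay above every tumour on 0.86% methionine, although the groups overlapped through tumour 9. The log2 difference (0.172% minus 0.86%) was 0.62 ± 0.16 (SE, limma unadjusted p = 8.3e-04, adjusted p = 0.355 over 38019 genes). In Balb/c hosts the 4 tumours on 0.86% methionine had 22636 (19/23), 36463 (20/24), 22511 (21) and 23261 (22) normalised counts. The 6 on 0.172% methionine had 20773 in the lowest, 36364 in the median and 42055 in the highest tumour. Tumour 20/24 lay with the restricted tumours and tumour 15 with the others, and the log2 difference was 0.39 ± 0.18 (SE, limma adjusted p = 0.637). Averaged over hosts the difference of mt-Nd2 was 0.51 ± 0.12 (SE, limma unadjusted p = 3.7e-04, adjusted p = 0.276).

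Mt-Nd4 and mt-Nd4l are read from 1 shared mRNA. In NSG hosts mt-Nd4 was 41757 in the lowest, 55658 in the median and 68863 in the highest tumour on 0.86% methionine, and 55991, 76699 and 81089 on 0.172% methionine. The Balb/c tumours had 41542 (19/23), 69757 (20/24), 44423 (21) and 45364 (22), against 42976, 71642 and 76668 on the restricted diet. The log2 difference averaged over hosts was 0.40 ± 0.11 (SE, limma adjusted p = 0.349). For mt-Nd4l the Balb/c values were 3647 (19/23), 9617 (20/24), 6250 (21) and 6399 (22) on 0.86% methionine, and 5715 in the lowest, 9436 in the median and 10188 in the highest tumour on 0.172%. Its log2 difference in Balb/c hosts was 0.48 ± 0.19 (SE, limma adjusted p = 0.505), which was 0.23 without tumour 19/23, the lowest for this gene, and in NSG hosts 0.37 ± 0.17 (SE, limma adjusted p = 0.743).

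Mt-Nd6 is the only protein gene on the minus strand. Its normalised count in NSG hosts was 5747 in the lowest, 8893 in the median and 12590 in the highest tumour on 0.86% methionine, and 8970, 12176 and 15237 on 0.172%. Its Balb/c values were 9390 (19/23), 11068 (20/24), 6051 (21) and 7192 (22), against 6465, 11719 and 14581. The groups overlapped in both hosts, and the mean log2 difference over hosts was 0.44 ± 0.15 (SE, limma adjusted p = 0.474). In Balb/c hosts it was 0.42, and 0.28 without tumour 21. Whether these reads came from the strand of mt-Nd6 cannot be told from the counts. The remaining complex I genes, mt-Nd1, mt-Nd3 and mt-Nd5, had mean diet differences of 0.30, 0.45 and 0.43 on the log2 scale.

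Mt-Cytb had the smallest spread between tumours of a group, an SD of 0.20 on the log2 scale. In NSG hosts it was 84202 in the lowest, 106494 in the median and 118139 in the highest tumour on 0.86% methionine, and 113887, 134154 and 159975 on 0.172%. As with mt-Nd2, 5 of 6 restricted tumours lay above every tumour on 0.86% methionine. The log2 difference was 0.40 ± 0.11 (SE, limma unadjusted p = 9.1e-04, adjusted p = 0.3575). In Balb/c hosts the 4 tumours had 108110 (19/23), 130931 (20/24), 107256 (21) and 107941 (22), and the restricted tumours 100279, 138287 and 157401. The difference there was 0.23 ± 0.12 (SE, limma adjusted p = 0.712), and the mean over hosts was 0.32 ± 0.08 (SE, limma adjusted p = 0.276).

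Of the complex IV genes, mt-Co1 had the smallest unadjusted p in Balb/c hosts (0.017). It had 311111 (19/23), 313891 (20/24), 364409 (21) and 312102 (22) normalised counts on 0.86% methionine, and 344543 in the lowest, 396901 in the median and 497602 in the highest tumour on 0.172%. All 6 restricted tumours lay above the median of the others, and tumour 21 alone reached into their range. The log2 difference was 0.31 ± 0.12 (SE, limma adjusted p = 0.488), against 0.21 ± 0.11 (SE, limma adjusted p = 0.759) in NSG hosts, which was 0.14 without tumour 11. Mt-Co3, a structural subunit of complex IV, had 93769 (19/23), 123893 (20/24), 100865 (21) and 93864 (22), against 91764, 142344 and 152021. Of its 6 restricted Balb/c tumours 5 lay above all the others and tumour 15 below all of them. The log2 difference of mt-Co3 was 0.37 ± 0.15 (SE, limma adjusted p = 0.514) in Balb/c hosts and 0.32 ± 0.14 (SE, limma adjusted p = 0.737) in NSG hosts. Mt-Co2, which receives electrons from cytochrome c, had a mean log2 difference of 0.24 ± 0.09 (SE, limma adjusted p = 0.552).

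Of the ATP synthase subunits, mt-Atp6, which forms part of the proton channel, had 76465 in the lowest, 103590 in the median and 128539 in the highest NSG tumour on 0.86% methionine, and 105859, 131420 and 146809 on 0.172%. Its Balb/c values were 95282 (19/23), 113942 (20/24), 81738 (21) and 69498 (22), against 72486, 112982 and 127293. The groups overlapped, and the log2 differences were 0.39 ± 0.14 (SE, limma adjusted p = 0.619) and 0.25 ± 0.16 (SE, limma adjusted p = 0.7685). Mt-Atp8 had the widest errors, with 0.54 ± 0.40 in NSG hosts and 0.48 ± 0.45 in Balb/c hosts (log2 difference ± SE). The Balb/c value was 0.91 without tumour 20/24, and 0.31, 0.26 and 0.25 without tumours 22, 17 and 18. That of mt-Atp6 was 0.14 without tumour 22.

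By count, the diet difference was positive for 13 of 13 protein genes in NSG hosts, with a median of 0.39 and a range of 0.21 to 0.62 on the log2 scale. It was positive for 13 of 13 in Balb/c hosts too, with a median of 0.38 and a range of 0.23 to 0.50. Over all 38019 genes tested, 42.9% of differences were positive in NSG hosts and 48.7% in Balb/c hosts. None of the 13 genes passed the limma adjusted p of 0.05 in either host, where 0.00526% of all genes were called in NSG hosts and 0.00263% in Balb/c hosts. At an unadjusted p under 0.05, 7 of 13 were higher in NSG hosts, where 3.28% of all genes were, and 6 of 13 in Balb/c hosts, where 2.83% were. For the mean over hosts 12 of 13 were, all but mt-Atp8, where 2.62% of all genes were. All 13 of these mean differences were positive, against 47.2% of all genes, and 0 of all genes were called (0%). These genes share RNA precursors and libraries, so the counts are not independent. No member had groups that did not overlap by diet, as 0.431% (higher) and 0.218% (lower) of all genes had in NSG hosts and 0.45% and 0.355% in Balb/c hosts.

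**Figure D3:**
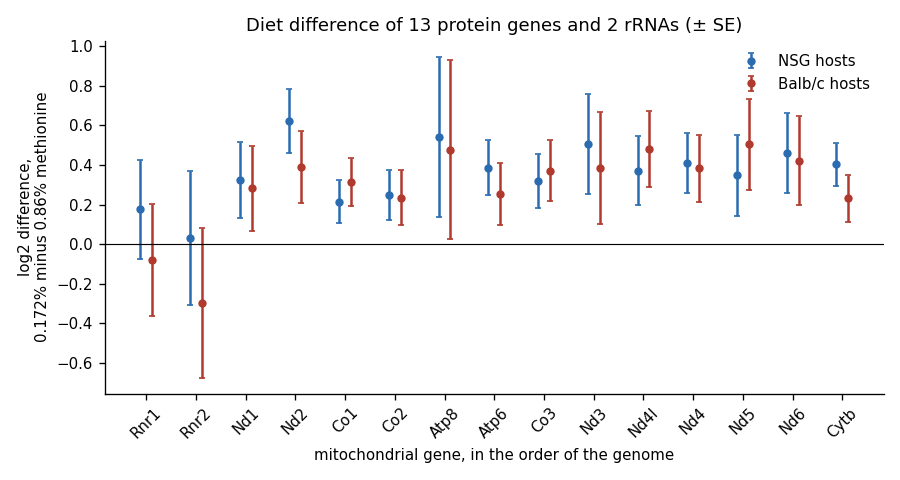
Points are log2 differences between 0.172% and 0.86% methionine for 13 protein genes and 2 rRNAs in the order of the genome, in NSG (blue) and Balb/c (red) hosts, and bars are standard errors. All protein genes lie above 0 in both hosts, with medians of 0.39 and 0.38, and the bars of the rRNAs cross 0.

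The diet differences of the rRNAs were smaller than their standard errors in both hosts. Mt-Rnr1 had 2466 in the lowest, 3589 in the median and 6358 in the highest NSG tumour on 0.86% methionine, and 3312, 4219 and 5632 on 0.172%. The Balb/c tumours had 6243 (19/23), 2796 (20/24), 1879 (21) and 3399 (22), against 2058, 3450 and 3905. Tumour 19/23 was the highest of the Balb/c tumours. The log2 differences of mt-Rnr1 were 0.18 ± 0.25 (SE, limma adjusted p = 0.910) and -0.08 ± 0.28 (SE, limma adjusted p = 1).

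Mt-Rnr2 had 1664, 3088 and 6077 normalised counts in the lowest, median and highest NSG tumour on 0.86% methionine, and 2332, 2887 and 4625 on 0.172%. The Balb/c values were 5717 (19/23), 2043 (20/24), 1230 (21) and 2548 (22), against 1266, 2194 and 2800. Tumour 19/23 was again the highest. Its log2 differences were 0.03 ± 0.34 (SE, limma adjusted p = 1) and -0.30 ± 0.38 (SE, limma adjusted p = 0.916). Without tumour 19/23 the Balb/c difference of mt-Rnr2 was 0.10 and that of mt-Rnr1 0.23, so the sign rests on that tumour, and for mt-Rnr1 also on tumour 17, without which it was 0.034. A test of protein genes against rRNAs was not made.

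The diet differences of both hosts were compared directly by an interaction term (Balb/c minus NSG). None of the 25 members with a count passed limma's adjusted p of 0.05 or an unadjusted p of 0.05, where 0% of all genes were called and 3.25% (higher) and 3.19% (lower) were under that unadjusted p. Of all genes 49.9% had a positive interaction, and 4 of the 13 protein genes did. The interaction of the 13 protein genes ran from -0.23 to 0.16 on the log2 scale, with a median of -0.04. For mt-Nd2 its 95% interval was -0.74 to 0.27 and for mt-Cytb -0.50 to 0.16, so differences of those sizes between hosts cannot be told from none.

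No marker of another cell type passed limma's adjusted p of 0.05 for the mean diet effect, where 0 of 38019 genes did. Several lists leaned one way. All 10 macrophage markers had a lower mean over hosts on 0.172% methionine, 5 of them at an unadjusted p under 0.05, where 20061 of 38019 genes were lower and 4.58% were lower at that p. Their sums had medians of 33405 and 29121 in NSG hosts and 54115 and 40848 in Balb/c hosts on 0.86% and 0.172%. No macrophage marker was at 0 in any tumour. All 7 endothelial markers were lower too, 4 of them at an unadjusted p under 0.05, with median sums of 3353 and 2748, and of 6299 and 5285. All 5 red cell markers (median log2 difference -0.54) and all 8 adipocyte markers (-0.49) were lower as well, with 1 marker each at an unadjusted p under 0.05. These medians lay further below 0 than those of the macrophage (-0.33) and endothelial (-0.33) lists. Only 1 to 4 of the 8 adipocyte markers had counts in every tumour of a group. Of that list, Ucp1 was at 0 in all NSG tumours and Cidea in all tumours on 0.172% methionine. The mean log2 difference of Ucp1 was -0.012. Of 6 fibroblast markers 5 were lower (-0.36), 1 of them at that p. Of the 8 T and NK cell markers 4 were lower, and of the 5 epithelial markers 3, 1 of them at that p. Of 10 skeletal muscle markers, 7 were lower in NSG hosts and 9 higher in Balb/c hosts. The part of these cell types in the mitochondrial values was not tested.

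Between hosts, 12 of 13 protein genes had a lower value in Balb/c than in NSG tumours on each diet, with median log2 differences of -0.15 on 0.86% and -0.18 on 0.172% methionine, and none was called, where limma called 2.53% and 2.09% of all genes. Of all genes 45.7% and 46% were higher in Balb/c tumours. No member had groups without overlap between hosts, as 2.75% (higher) and 1.5% (lower) of all genes had on 0.86% methionine and 1.04% and 0.731% on 0.172%. Mt-Atp8, named here after its values were seen, had by far the largest. In NSG hosts its normalised count was 2811 in the lowest, 5060 in the median and 8107 in the highest tumour on 0.86% methionine, and 3517, 8122 and 9339 on 0.172%. In Balb/c hosts on 0.86% methionine it was 1400 (19/23), 4471 (20/24), 1279 (21) and 1238 (22), and on 0.172% it was 1966, 2036, 1075, 1825, 5196 and 5503 in tumours 13 to 18. The 3 Balb/c tumours 20/24, 17 and 18 lay within the NSG range and the other 7 below all NSG tumours. The log2 differences were -1.44 ± 0.45 (SE, limma adjusted p = 0.119) on 0.86% and -1.51 ± 0.40 (SE, limma adjusted p = 0.0616) on 0.172% methionine, folds of 0.369 and 0.352.

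The neighbouring gene mt-Atp6 had log2 differences of -0.17 ± 0.16 and -0.30 ± 0.14 (SE) between hosts on 0.86% and 0.172% methionine. Counts on mt-Atp8 made up 4.996% ± 1.27 and 5.59% ± 1.30 (SD, n = 6 each) of those on mt-Atp6 in NSG hosts on 0.86% and 0.172% methionine. They made up 2.18% ± 1.17 (SD, n = 4) and 2.62% ± 1.44 (SD, n = 6) in Balb/c hosts. The Balb/c tumours fell into a low set of 7, between 1.47% and 1.80%, and the 3 tumours 20/24 (3.92%), 17 (4.60%) and 18 (4.32%). The T and NK cell markers summed to 57.9 in tumour 17 and to 685 in tumour 20/24, each the lowest of its diet group in Balb/c hosts. Tumour 18 had 4484, above the median of 3301 of its group. The part of these cells in the ratio was not tested.

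In the overlapping pairs mt-Nd4l with mt-Nd4 and mt-Nd6 with mt-Nd5, tumour 19/23 stood apart, a tumour named here after its values were seen. Mt-Nd4l made up 11.9% to 14.3% of mt-Nd4 in the other 21 tumours and 8.78% in 19/23. Mt-Nd6 made up 23.8% to 33.5% of mt-Nd5 in the others and 47.5% in 19/23. Both libraries averaged in this tumour count as 1 sample, so these values have no replicate.

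**Figure D4:**
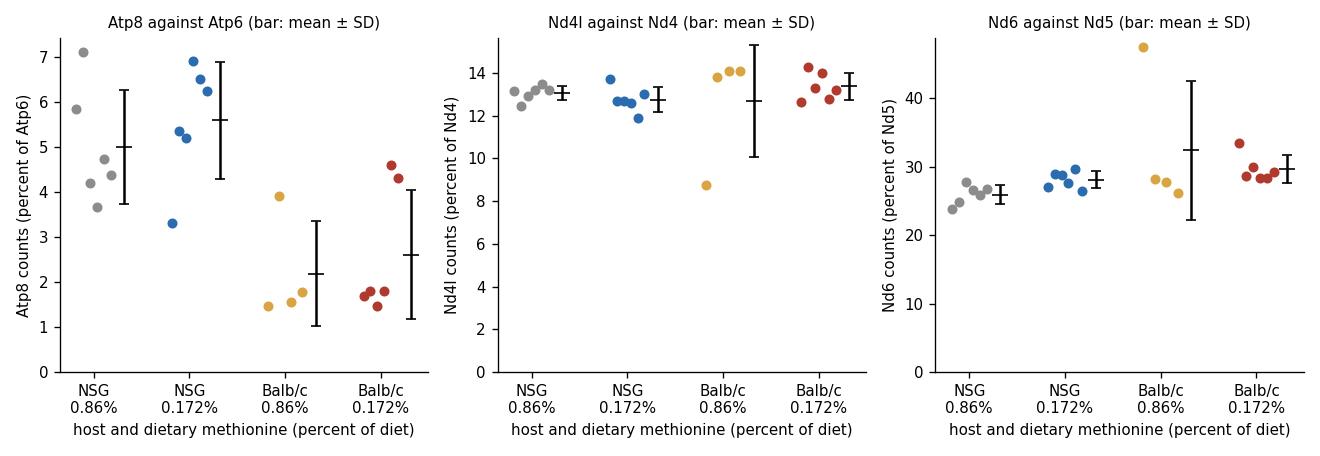
Each point is 1 tumour, the vertical axes give the counts of 1 gene as a percent of those of the gene it overlaps, and black bars are the mean and SD of a group. For mt-Atp8 against mt-Atp6 7 Balb/c tumours lie at 1.47% to 1.80%, and tumour 19/23 stands apart in the other panels at 8.78% and 47.5%.

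Of the 22 tRNAs, 12 had no count in any of the 24 libraries, and only mt-Tc, mt-Ts1 (for serine) and mt-Tp had one in every library. All tRNAs together had 2063 counts. Mt-Tc had 948 over the 24 libraries, mt-Tp 759 and mt-Tn 214. A tRNA is shorter than a read, so a read can be given to it alone only where the stretch around it that no other gene holds is at least 75 bases. When strand is ignored, mt-Tl1, mt-Tn, mt-Tc and mt-Tp have such a stretch, and they held 1922 of the counts. A further 10 tRNAs have one only if strand is kept, and they held the remaining 141, of which 114 were on mt-Ts1. For mt-Td, whose length is close to that of mt-Tn, the stretch is 74 bases when strand is ignored. The other 8 tRNAs have no such stretch and had 0 counts. No order of tRNA levels can be read from these counts.

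**Figure D5:**
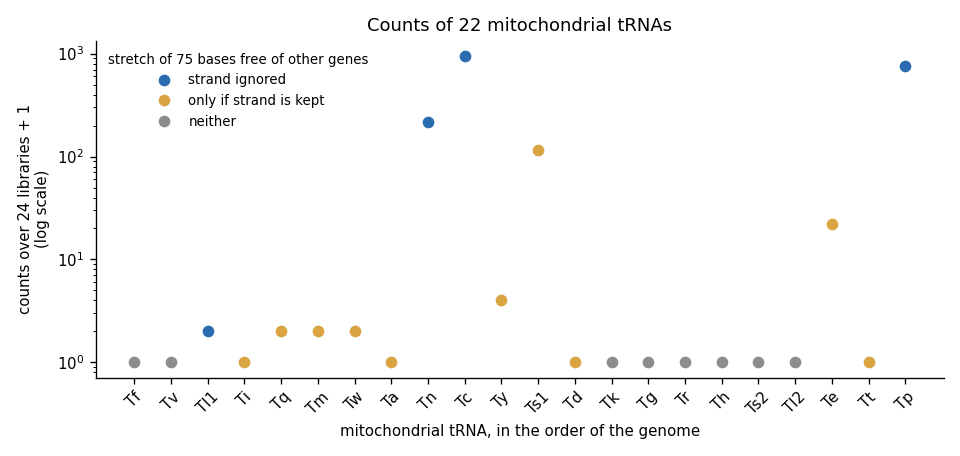
The vertical axis is the total count of each mitochondrial tRNA over 24 libraries plus 1, on a log scale, in the order of the genome, and colour marks whether a stretch of 75 bases around it is free of other genes. Mt-Tc (948) and mt-Tp (759) are highest, and the 8 tRNAs without such a stretch are at 0.

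Mt-Tc was the only mitochondrial gene called in any contrast. Its normalised count on 0.172% methionine was 39.0 in the lowest, 53.9 in the median and 77.5 in the highest NSG tumour, and 9.73, 22.97 and 48.2 in Balb/c hosts, where 5 of 6 tumours lay below all NSG tumours. The log2 difference was -0.77 ± 0.19 (SE, limma adjusted p = 0.0301, where 0.652% of all genes were called lower), a value understated by the log2 scale at such low counts. On 0.86% methionine the NSG values were 25.0, 48.8 and 71.1 and the Balb/c values 25.3 (19/23), 31.5 (20/24), 13.2 (21) and 20.2 (22), with a difference of -0.60 ± 0.21 (SE, limma adjusted p = 0.174). The call on 0.172% methionine was lost when any of 7 single tumours was left out (2, 4, 5, 6, 13, 14 or 15), with the adjusted p over these fits and all other settings between 0.00857 and 0.117. Mt-Tn had -0.64 ± 0.20 (SE, limma adjusted p = 0.0915) on 0.86% methionine and mt-Tp 0.08 ± 0.20 (SE, limma adjusted p = 0.947). Beside these host differences, all 8 T and NK cell markers were called higher in Balb/c tumours on 0.172% methionine and 7 of 8 on 0.86%. Of the 7 endothelial markers 3 and 6 were called higher, and of the 10 macrophage markers 1 and 1. Of all genes 1.44% and 2.05% were called higher on 0.172% and 0.86% methionine. The part of these cells in the mitochondrial values was not tested.

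The protein genes varied together from tumour to tumour. After group means were subtracted, the 78 pairs of protein genes had Pearson correlations of 0.26 to 0.94 over 22 tumours, with a median of 0.80. The 26 pairs of a protein gene with an rRNA had correlations of -0.02 to 0.72, with a median of 0.43. The rRNAs correlated with each other at 0.955. These values share library depth and normalisation and are descriptions. The SD within groups was lowest for mt-Cytb and mt-Co1 (0.20 each on the log2 scale) and highest for mt-Rnr2 (0.60) and mt-Atp8 (0.71).

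Counts on mitochondrial genes were repeated on nuclear genes with the same sequence. Pieces of the mitochondrial genome have been inserted into nuclear chromosomes, and 16 annotated nuclear genes match 11 of the members at 90% identity or more, 5 of them at 100%. Gm28437 carried 100.04% to 100.2% of the count of mt-Co3 in every tumour, and Gm28661 matched mt-Co2 as closely. Gm10222 (a copy of mt-Nd4l) and Gm28438 (of mt-Nd3) stood at medians of 100.1% and 100.3%. Gm10925, a copy of mt-Atp6, carried 113% to 126% of its count. The 9 most diverged copies held between 0.00147% and 25.1% of their member's count in the median tumour. At the upper end Gm13341, 95.9% identical to mt-Co2, stood at 25.1% and Gm13340, 97.6% identical to mt-Co1, at 22.5%. Gm11410, 92.9% identical to mt-Cytb, stood at 0.0231%. Together the copies held 1.20% to 2.03% of all counts. Members and copies at or near identity cannot be told apart in these counts.

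Genes with a mean log2 value of 8 or more were compared with the average of the protein genes after group means were subtracted. Of the 11495 compared over 22 tumours, the 5 that most resembled this average were all such copies. Gm10925 had a Pearson correlation of 0.957, Gm28437 0.952, Gm13341 0.925, Gm28438 0.921 and Gm28439 0.892. The most similar genes that are not copies were Cript, with 0.779, Trp53inp1, with 0.771, and Snx2, with 0.767.

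Of the nuclear genes that serve the mitochondrial genome, none passed limma's adjusted p of 0.05 for diet. Of all genes 0.00526% did in NSG hosts, 0.00263% in Balb/c hosts and 0% for the mean. Of the 70 nuclear subunits of the respiratory chain and ATP synthase, 67 had a positive difference in NSG hosts, with a median of 0.13 on the log2 scale and 14 at an unadjusted p under 0.05, against 42.9% and 3.28% of all genes. In Balb/c hosts 30 of 70 were positive, with a median of -0.01 and 0 at an unadjusted p under 0.05, against 48.7% and 2.83% of all genes. Their interaction had a median of -0.15 with 11 of 70 lower at an unadjusted p under 0.05, where 3.19% of all genes were, and 0 called. Without single tumours the median of this list was 0.11 to 0.16 in NSG hosts and -0.08 to 0.13 in Balb/c hosts. That of its interaction was -0.21 to -0.03, so the contrast between hosts depends in size on single tumours. In the mean over hosts, Atp5g1, an ATP synthase ring subunit, had 0.17 ± 0.07 (SE, limma adjusted p = 0.592) and Ndufa12, of complex I, had 0.16 ± 0.07 (SE, limma adjusted p = 0.614).

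For the lists that follow, 47.2% of all genes had a positive mean difference over hosts, with a median of -0.01, and 2.62% were higher at an unadjusted p under 0.05. For mitochondrial transcription, 9 of 10 genes had a positive mean difference over hosts, with a median of 0.08 and 3 at an unadjusted p under 0.05. Tefm, the elongation factor, had 0.19 ± 0.06 (SE, limma adjusted p = 0.475) and Mterf1a 0.20 ± 0.08 (SE, limma adjusted p = 0.600). For replication, 9 of 11 were positive with a median of 0.06 and 4 at an unadjusted p under 0.05. Dguok, which makes deoxynucleotides for mitochondrial DNA, had 0.28 ± 0.06 (SE, limma adjusted p = 0.276), and Twnk, the replicative helicase, had 0.27 ± 0.09 (SE, limma adjusted p = 0.426). For RNA processing, 21 of 22 were positive with a median of 0.08 and 6 at an unadjusted p under 0.05, among them Prorp, the nuclease that cuts at the start of tRNAs, with 0.20 ± 0.07 (SE, limma adjusted p = 0.507). Ptcd3, a ribosome-bound protein, had 0.20 ± 0.07 (SE, limma adjusted p = 0.469). By host, 1 transcription, 1 replication and 8 processing genes were higher in NSG hosts at an unadjusted p under 0.05, where 3.28% of all genes were. In Balb/c hosts 3, 4 and 0 were, where 2.83% of all genes were.

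Of 18 genes for methylation of mitochondrial RNA and formyl-methionine, 14 had a positive mean difference, with a median of 0.08 and 3 at an unadjusted p under 0.05. Tfb1m, which methylates the small-subunit rRNA, had 0.24 ± 0.07 (SE, limma adjusted p = 0.334), and Mrm3, a methyltransferase of the large-subunit rRNA, had 0.19 ± 0.06 (SE, limma adjusted p = 0.378). Of 10 regulators of mitochondrial content, 5 had a positive difference, with 0 at an unadjusted p under 0.05. Ppargc1a, a coactivator of these genes, had -0.36 ± 0.27 (SE, limma adjusted p = 0.819) and Sirt3, a mitochondrial deacetylase, 0.13 ± 0.10 (SE, limma adjusted p = 0.819). The single call in these lists was Nrf1, a transcription factor for respiratory genes. It differed between Balb/c and NSG tumours on 0.172% methionine by -0.27 ± 0.06 on the log2 scale (SE, limma adjusted p = 0.0227). In that contrast 2.09% of all genes were called, and 0.652% of all genes were called lower, so 1 call in these lists does not set them apart. On 0.86% methionine Nrf1 differed by -0.09 ± 0.07 (SE, limma adjusted p = 0.680).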

How the data were processed

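The deposited table holds 1 log2 value per gene and library, made by the authors with STAR, featureCounts and DESeq2 on mm10, per the submitters' processing notes; versions, annotation and any rule for multi-mapped reads were not given in the sources used here. As far as the values show, it is a variance-stabilised scale with a floor of 4.07 for a count of 0. Inverting it gave whole counts, within 0.01, for 100% of 640012 values. These recovered counts gave depth, shares, ratios and normalised counts, and tests used the deposited log2 values. Of 55228 lines, 26 named by a date were left out. The labels differ on the library kit (poly(A) enrichment or stranded with ribosomal depletion) and on the read length, for which 75 bases was used.

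Limma 3.58.1 (R 4.3.3, statmod 1.5.0) fitted the 4 group means to 22 tumours (eBayes with trend and robust options, two-sided) and adjusted p by Benjamini-Hochberg over the 38019 genes that had counts. It was also run on simulated counts drawn for each gene separately. The members vary together, so nothing about them is concluded from that run. Differences are log2, and folds are 2 to that power. Copies were found with blastn (at least 75 bases at 90% identity) against GENCODE mouse release 21. The members and gene lists were chosen with earlier results of these data known. Values per tumour are given for the 3 protein genes with the smallest unadjusted p in each diet contrast, mt-Nd6, both rRNAs and called members. From each list the called members are named, otherwise the 2 genes with the smallest unadjusted p for the mean diet effect. Alternatives were other filters, scalings, weights and fits, all 24 libraries, and leaving out each tumour. No paired analysis was possible because the library numbers, 1 to 24, are not shared between groups.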

Additional observations from a re-analysis of the deposited data

Results flagged for a closer look

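In groups of 4 to 6 tumours, 10 of 64 sets of values (15 genes and the mitochondrial share in 4 groups) had 1 tumour far from the others relative to the group's range, where chance gives about 1 in 20. The genes vary together, so these are not 10 separate events. On the log2 scale, tumour 20/24 (Balb/c, 0.86% methionine) stood above its group for mt-Nd2 (15.15), mt-Nd4 (16.09), mt-Cytb (16.997) and mt-Atp8 (12.11), and in its mitochondrial share of counts (2.70%). Tumour 21 of the same group stood above it for mt-Co1 (18.48). Tumour 15 (Balb/c, 0.172% methionine) stood below its group for mt-Nd1 (14.76), mt-Nd2 (14.35) and mt-Co3 (16.49). Tumour 1 (NSG, 0.172% methionine) stood below its group for mt-Atp8 (11.79).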

How the results depend on the processing

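In every alternative no mitochondrial gene was called for diet or for the interaction, the lowest adjusted p of a protein gene for diet being 0.0805. The median diet difference of the protein genes without 1 tumour was 0.32 to 0.45 in NSG hosts, 0.31 to 0.55 in Balb/c hosts and 0.35 to 0.48 for their mean. Of 1274 diet values of protein genes under 33 settings 3 were not above 0, all of mt-Co1 under quantile normalisation (0.00 in NSG hosts, -0.064 in Balb/c hosts, -0.032 for the mean). The count of members called between hosts on 0.86% methionine was 1 in place of 0 with library weights or 24 libraries, and 0 to 1 without single tumours. On 0.172% methionine, with 1 in the report, it was 0 with no filter, CPM of non-mitochondrial counts or only the contrast's groups, 2 (with mt-Atp8) with a filter of 5 in 6 tumours, log2(normalised count + 10), library weights or plain eBayes, and 0 to 2 without single tumours. The mt-Rnr1 diet difference turned to 0.11 in Balb/c hosts with library weights, and for the mean to -0.013 with voom and -0.012 with 24 libraries. Without tumour 19/23 it was 0.23 in Balb/c hosts and 0.20 for the mean, and without each other tumour -0.34 to 0.034 and -0.082 to 0.12. That of mt-Rnr2 in NSG hosts turned to -0.0078 with that CPM and to -0.003 with voom, and was -0.14 to 0.23 without single tumours. Without tumour 19/23 the mt-Rnr2 difference was 0.10 in Balb/c hosts and 0.068 for the mean, and over all single tumours -0.62 to 0.10 and -0.30 to 0.068. Between hosts on 0.86% methionine, without tumour 21, mt-Rnr1 was 0.044 and mt-Rnr2 0.041. Without tumour 19/23 they were -0.53 and -0.69, and the lowest value of mt-Rnr2 without any other tumour was -0.45. The cause was not tested. Adding the nuclear copies' counts gave shares of 3.89%, 4.60%, 3.63% and 4.42% (NSG on 0.86% and 0.172%, then Balb/c). Leaving the copies out of the total, chosen after seeing the data, gave 2.41%, 2.86%, 2.24% and 2.74%. Without single tumours the shares were 2.24% to 2.48%, 2.75% to 2.88%, 2.04% to 2.27% and 2.61% to 2.82%. Over all genes the calls for diet were 0 to 10 in NSG hosts (2 in the report), 0 to 122 in Balb/c hosts (1 in the report, 112 with 24 libraries, 122 without tumour 18) and 0 to 37 for the mean (0 in the report, 37 without tumour 18). Between hosts they were 515 to 1824 (963) and 385 to 1394 (796). For the tRNAs a few counts decide a value. No paired analysis was possible because the groups share no library numbers.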
